A study of Mus musculus with 4 samples.

Results

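Regions bound by Mafk with no called peak of Bach1 or Bach2 were examined in M1, a mouse myeloid leukemia cell line that was neither stimulated nor otherwise treated. Peaks of 3 chromatin immunoprecipitation (ChIP-seq) libraries were merged wherever they shared at least 1 bp, and a region was taken when it held Mafk peaks and no Bach1 or Bach2 peak, leaving out the mitochondrial genome. This gave 1336 Mafk-only regions of 5408 merged regions, or 24.7%. Each of the 1336 held a single Mafk peak, so the regions make up 76.0% of the 1759 Mafk peaks (95% Wilson interval 73.9 to 77.9). The labels name in-house antibodies for Bach1 (A1-6) and Bach2 (Bach2N2) and a commercial antibody to NF-E2 p18, a synonym of Mafk, and each was used for 1 library of the same untreated line. The labels also list an input DNA library made with no antibody, whose reads were not analysed here. With 1 library per factor there is no replicate error, and every interval covers counting error over peaks or fragments only.

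Mafk is a small Maf protein, a basic leucine zipper factor that has a DNA-binding and a dimerization part but no activation domain of its own. It binds Maf recognition elements as a homodimer or as a heterodimer with larger partners. Among these partners are the repressors Bach1 and Bach2, the erythroid and megakaryocytic factor NF-E2 p45, and Nrf1 and Nrf2, which drive antioxidant genes. A Mafk peak alone therefore does not name the partner at the site. The peaks of Nrf1, Nrf2 and NF-E2 p45 were not measured.

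The regions were chosen by the peak calls of all 3 libraries, which rest on pileup and fold enrichment, so the Mafk values below describe the regions and were not tested against those of other Mafk peaks. The pileup is the number of overlapping fragments at the summit, and the fold enrichment is that pileup over the local background of the control, both as the authors' peak caller gave them. At the Mafk-only regions the fold enrichment ran from 2.30 to 17.7, with a median of 5.01 (95% interval of the median 4.91 to 5.14) and 5th and 95th percentiles of 3.30 and 9.43. The 423 Mafk peaks in regions with a Bach peak had a median of 4.39 (4.19 to 4.54) and percentiles of 2.73 and 8.59. Most of the range was shared by the 2 groups.

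In pileup the order was the opposite. Mafk-only summits held 20 to 170 fragments with a median of 40 (39 to 41), whereas Mafk summits with a Bach peak held 22 to 339 with a median of 57 (54 to 59). Among the 20 Mafk peaks of highest fold enrichment 14 were Mafk-only, and among the 20 of highest pileup 0 were, beside 76.0% of the whole list. The first count is near that share. The second does not show stronger enrichment. The tallest Mafk peak, with 339 fragments and a Bach peak, had a fold enrichment of 2.94. Its control background, computed as described below, was 21.3 times the lowest in the list, against at most 8.39 times at Mafk-only summits. Mafk-only peaks were 223 to 909 bp long with a median of 341 bp (334 to 350), against 307 bp (299 to 315) with a Bach peak.

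**Figure D1:**
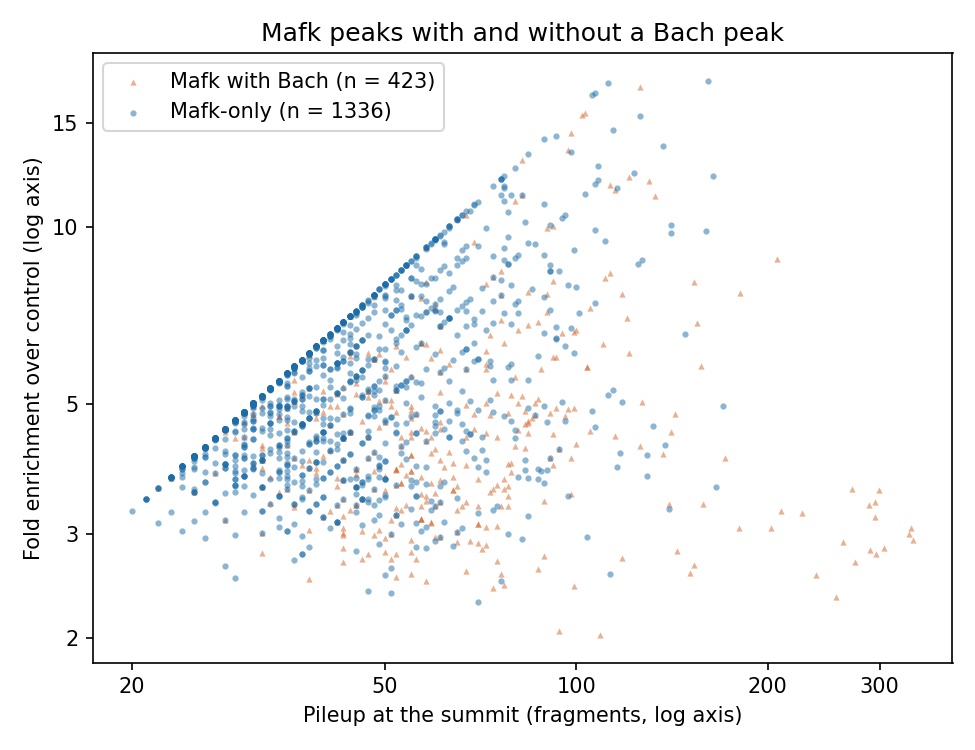
Fold enrichment over the control (vertical, log axis) against the pileup at the summit in fragments (horizontal, log axis) for each Mafk peak, with 1336 Mafk-only peaks as circles and 423 Mafk peaks with a Bach peak as triangles. The straight upper edge is formed by peaks at the lowest control background, and every peak above 170 fragments is a triangle.

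The summit lay a median of 21.5 bp from the peak's centre at Mafk-only regions (quartiles 9 and 40.5 bp) and 18 bp at Mafk peaks with a Bach peak (9 and 36.3 bp). Across the 1336 regions, fold enrichment rose with peak length (Spearman rho 0.63) and with pileup (0.47) and was lower where the control background was higher (-0.33). These rank correlations describe regions of 1 library that share depth and control. The background was computed from the pileup and the fold enrichment, so these are linked by arithmetic.

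The share of Mafk peaks that lacked a Bach peak changed with their strength. The whole list stood at 76.0%. Of 5 nearly equal groups of Mafk peaks ranked by fold enrichment, the weakest ran from 2.02 to 3.84 and had 203 Mafk-only peaks of 352, or 57.7% (52.5 to 62.7). In the strongest, from 6.59 to 17.7, 295 of 351 were, or 84.0% (79.8 to 87.5). By pileup the order turned: 89.2% (85.7 to 91.9) of the Mafk peaks with 20 to 32 fragments were Mafk-only, against 53.7% (48.5 to 58.9) of those with 66 to 339. Between these end groups, Mafk-only peaks were thus a larger share of the more enriched Mafk peaks and a smaller share of the tall ones. No further rise was seen at the very top, where peaks were few. At a fold enrichment of at least 10 the Mafk-only share was 76.1% (64.7 to 84.7), or 51 of 67 peaks. This interval includes the 84.0% of the strongest group, so a fall is not resolved. At least 15 was reached by 8 peaks, of which 5 were Mafk-only.

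At the upper end of enrichment the shares with and without a Bach peak were close. A fold enrichment of at least 10 was reached by 51 Mafk-only peaks, or 3.82% of them (2.92 to 4.98), and by 16 Mafk peaks with a Bach peak, or 3.78% (2.34 to 6.06). At a fold enrichment of at least 5 the shares were 50.7% (48.0 to 53.3) and 32.2% (27.9 to 36.7). At least 15 was reached by 5 Mafk-only peaks and by 3 with a Bach peak.

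The control background also differed between the classes. It was computed at each summit from pileup and fold enrichment and is given as a multiple of the lowest value in the list, which was 5.39 fragments for Mafk. The median was 1.17 (1.12 to 1.17) at Mafk-only summits, 1.68 (1.51 to 1.95) at Mafk peaks with Bach1 and no Bach2, and 2.49 (2.32 to 2.69) at those with both. Of the Mafk-only peaks 443, or 33.2%, lay at the lowest background, and 15, or 1.12%, at more than 5 times the lowest. The lowest value of its own list was shared by 481 Mafk, 391 Bach1 and 79 Bach2 peaks. Whether that shared value is the control signal at each site or a lower limit of the calculation is not known from the lists. Within their own lists, peaks of Bach1-only regions had a median of 2.47 (2.36 to 2.64) and those of Bach2-only regions 2.56 (2.28 to 2.72). Of these 5 classes the Mafk-only regions had the lowest median. The whole lists were ordered alike, with medians of 1.34 for all Mafk, 2.47 for all Bach1 and 2.56 for all Bach2 peaks. Mafk-only peaks make up 76.0% of the whole Mafk list, so its median is not independent of theirs. The Mafk peaks with any Bach peak had a median of 2.18 (2.01 to 2.35), nearer to the Bach-only regions than to the Mafk-only regions. Which control library each list was called against is not given in the sources used here, so values of different lists may not refer to the same control.

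Counted by background, 443 of 481 Mafk peaks at the lowest value were Mafk-only, or 92.1% (89.3 to 94.2). The share was 86.6% (83.5 to 89.3) above the lowest and up to 1.5 times it, 74.8% (69.3 to 79.6) from 1.5 to 2 times, and 58.1% (52.0 to 63.9) from 2 to 3 times. It was 37.7% (30.4 to 45.5) from 3 to 5 times and 27.3% (17.3 to 40.2), 15 of 55 peaks, above 5 times. The share fell at each step of the background. What part the control background has in the calling of Bach peaks was not tested.

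**Figure D2:**
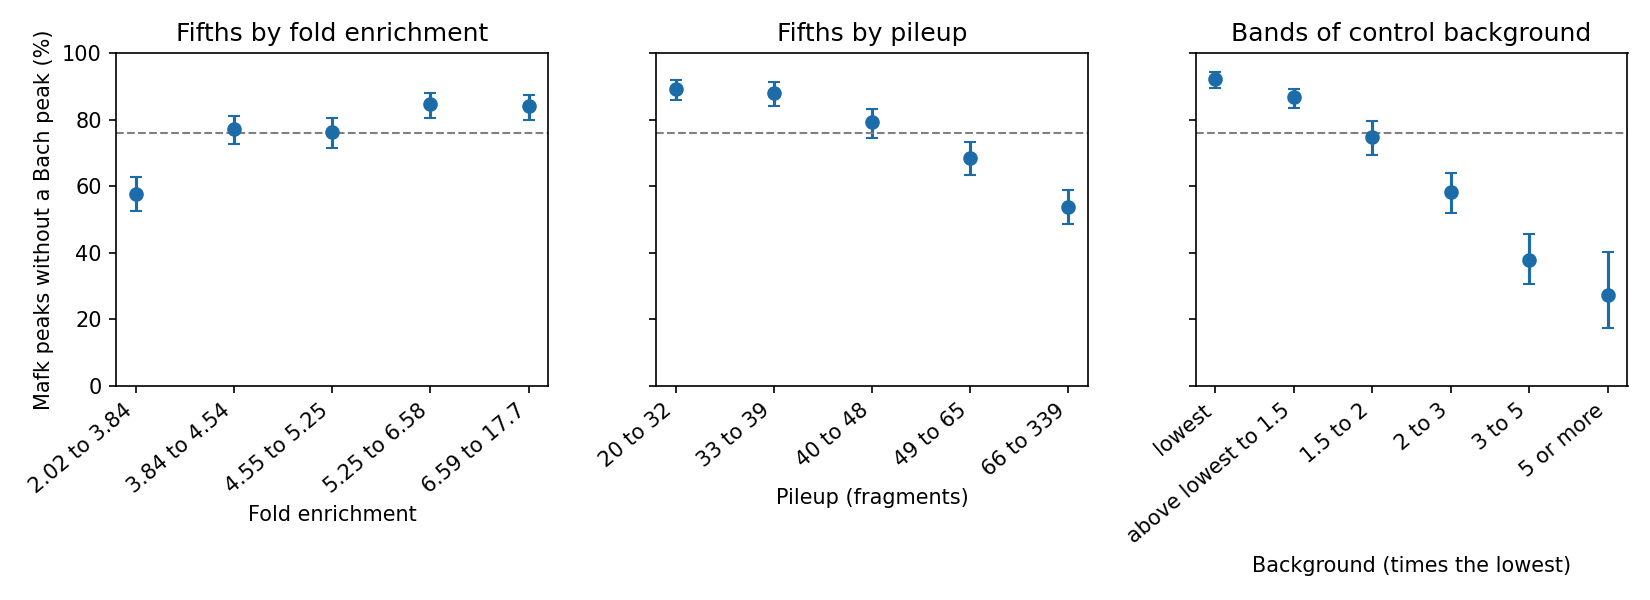
Share of Mafk peaks without a Bach peak, in percent with 95% Wilson intervals, by 5 groups of fold enrichment (left), 5 groups of pileup (middle) and bands of control background as multiples of the lowest value (right). The dashed line is the share in the whole list, 76.0%. In the left panel the share was lowest, at 57.7%, in the weakest group. It fell to 53.7% with pileup and to 27.3% with background.

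Median enrichment with and without a Bach peak was also set side by side within bands of background. At the lowest background the median Mafk fold enrichment was 5.48 (5.17 to 5.48) at 443 Mafk-only peaks and 5.17 (4.85 to 6.42) at 38 with a Bach peak. From 1.5 to 2 times the lowest it was 4.77 (4.49 to 5.14) at 202 Mafk-only peaks and 5.02 (4.57 to 5.47) at 68 with a Bach peak. Above 5 times the lowest the gap was wider, with 3.61 (2.95 to 4.12) at 15 Mafk-only peaks and 2.93 (2.74 to 3.26) at 40 with a Bach peak, or 0.30 in log2. In the other 5 bands the difference lay between -0.07 and 0.08. The mean of the 6 differences, weighted by Mafk-only peaks, was 0.026 in log2, against 0.19 for the pooled medians. That mean was chosen after the data were seen.

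The Bach lists have their own lower ends, given here by the background in each Bach list. At the lowest background of its list the weakest listed Bach1 peak had a fold enrichment of 3.47 (391 peaks) and the weakest listed Bach2 peak 4.08 (79 peaks). From 1.5 to 2 times the lowest these values were 2.70 and 2.89, and from 3 to 5 times 2.08 and 1.91. The Bach signal and the Bach-list background at Mafk-only regions are not known from these lists, so lack of a call does not show that Bach1 or Bach2 was absent. Where a Mafk peak did lie on a Bach1 peak, the Bach1 fold enrichment had a median of 9.09 (8.53 to 10.4) over 421 Mafk peaks and 54 of them, or 12.8%, were under 4. Bach1 peaks in regions without Mafk had a median of 4.49 (4.41 to 4.58), and 41.0% of these 3453 peaks were under 4. On a Bach2 peak the Bach2 median was 5.52 (5.28 to 5.98) over 302 Mafk peaks, with 69, or 22.8%, under 4, beside 4.22 (4.11 to 4.38) and 42.9% for the 1085 Bach2 peaks in regions without Mafk.

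The 20 Mafk-only regions of highest fold enrichment ran from 12 to 17.7, on 11 chromosomes. Chromosome 3 held 5 of the 20, beside 9.06% of all Mafk-only regions, a small count that was not tested. Coordinates are those of mm9. The first was chr16:22714179-22714896, with 161 fragments at the summit and a fold enrichment of 17.7 (15.1 to 20.7, the exact 95% Poisson interval of the pileup with the background held fixed). The next were chr6:5379765-5380413 with 112 fragments and 17.6 (14.5 to 21.1), chr8:130277916-130278616 with 107 and 16.9 (13.9 to 20.4), and chr14:71875443-71875922 with 106 and 16.8 (13.7 to 20.2). Rank 5, chr16:36516252-36517160, had 126 fragments and 15.4 (12.9 to 18.3) and was the longest Mafk-only peak, at 909 bp. The intervals of these 5 overlap, so their order is not resolved by the counts.

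Ranks 6 to 11 had a fold enrichment between 13.3 and 14.6. They were chr6:147798349-147798951 (14.6), chr3:107058500-107059338 (14.3), chr1:33720419-33720987 (14.1), chr3:130071073-130071741 (13.7), chr3:40834445-40835045 (13.4) and chr2:112598846-112599336 (13.3). Ranks 12 to 20 lay between 12 and 12.7. They were chr15:103364358-103364961, chr2:165085333-165085768, chr3:102360386-102361286, chr15:80328192-80328678, chr1:57221235-57221730, chr13:78622163-78622625, chr5:93603653-93604108, chr9:67226560-67227033 and chr3:69026725-69027328. The background at these 20 summits ran from 1 to 2.32 times the lowest. Of the 20, 8 were at the lowest value itself, beside 33.2% of all Mafk-only peaks. The 20 were picked by fold enrichment, which is higher at a given pileup where the background is lower, so a low background partly follows from the choice.

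**Figure D3:**
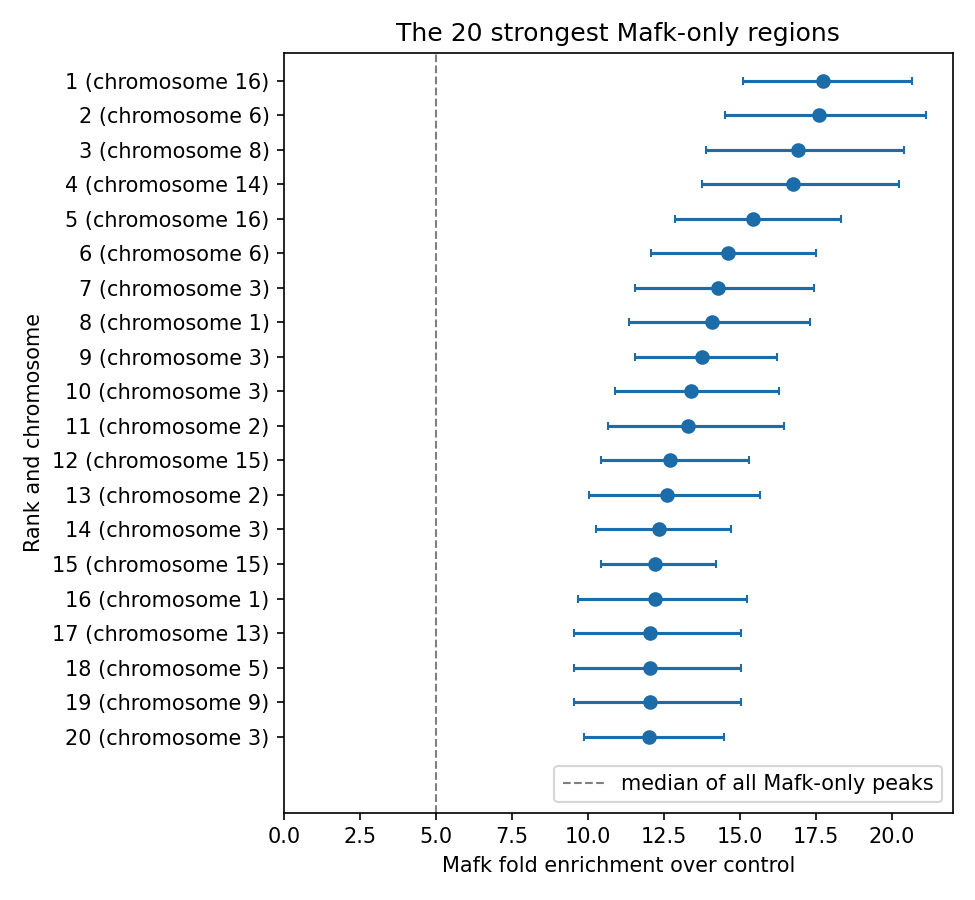
Mafk fold enrichment over the control (horizontal) at the 20 strongest Mafk-only regions, by rank and chromosome (vertical), with exact 95% Poisson intervals of the pileup. The values run from 12 to 17.7, and the intervals of neighbouring ranks overlap. The dashed line is the median of 5.01 over all Mafk-only peaks, and the 20 were picked for their high values.

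Of these 20 regions 0 had a Bach peak within 10 kb and 5 had one within 100 kb, beside 4.94% and 34.9% of all Mafk-only regions, so small counts cannot set the 20 apart. The nearest were at 12.3 kb, a Bach1 peak beside chr6:5379765-5380413, and at 14.0 kb, a Bach2 peak beside chr3:69026725-69027328. The farthest was chr13:78622163-78622625, with no Bach peak for 2228 kb. A second Mafk-only peak stood close to some of them. At 1.26 kb from chr3:107058500-107059338 lay chr3:107056763-107057237, with 62 fragments and a fold enrichment of 8.60, and at 5.84 kb from chr3:130071073-130071741 lay chr3:130064851-130065229, with 40 fragments and 4.98.

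The tallest Mafk-only summits were of mixed kinds. The highest pileup, 170 fragments (145 to 198), was at chr15:52464272-52464496, a peak of 225 bp where the background was 6.21 times the lowest and the fold enrichment 4.96. The next, 166 fragments at chr11:107050677-107051053, had the highest background of all Mafk-only peaks, 8.39 times the lowest, and a fold enrichment of 3.61. The others of the 5 tallest were chr15:80328192-80328678 (164 fragments, fold enrichment 12.2), chr16:22714179-22714896 (161, 17.7) and chr1:180393899-180394354 (160, 9.84). At the bottom of the range were chr3:88468144-88468431 (70 fragments, fold enrichment 2.30), chr10:41608167-41608477 (51, 2.39), chr11:116898333-116898574 (47, 2.40), chr5:149948741-149949066 (76, 2.50) and chr6:87573328-87573553 (29, 2.53). The background was 2.01 to 5.54 times the lowest at these 5.

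Mafk-only regions mostly stood far from any Bach peak. The median distance between edges to the nearest Bach1 or Bach2 peak was 186 kb (quartiles 61.5 and 470 kb). Of the 1336 regions, 4 had a Bach peak within 1 kb, 66 within 10 kb, or 4.94% (3.90 to 6.24), and 466 within 100 kb, or 34.9% (32.4 to 37.5). Regions that held both Mafk and a Bach factor had another Bach-holding region within 10 kb in 60 of 419 cases, or 14.3% (11.3 to 18), and Bach1-only regions in 432 of 2578, or 16.8% (15.4 to 18.2). The rule itself removes Mafk peaks that touch a Bach peak, and the difference was not tested.

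**Figure D4:**
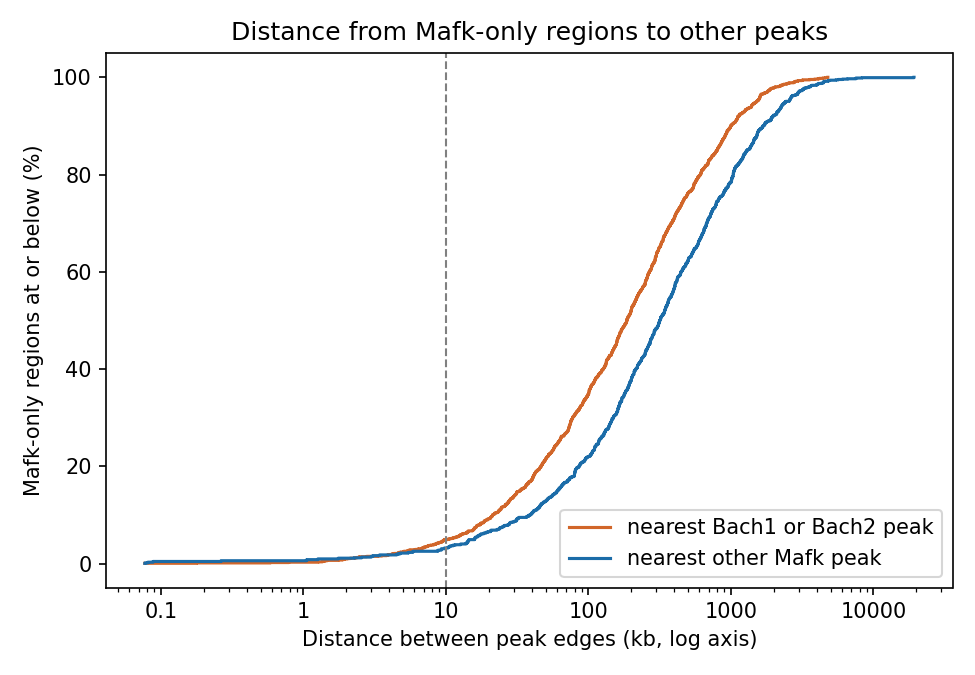
Share of the 1336 Mafk-only regions, in percent (vertical), that have the nearest Bach1 or Bach2 peak or the nearest other Mafk peak at or below a given distance between edges in kb (horizontal, log axis). The dashed line marks 10 kb, where the shares were 4.94% and 3.22%. The lists hold 3871 Bach1, 1385 Bach2 and 1759 Mafk peaks, so these shares are not on an equal footing.

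The 66 regions within 10 kb of a Bach peak were close to the others in median fold enrichment, with a higher median pileup and control background. Their median pileup was 46.5 fragments (40 to 51) against 40 (39 to 41) at the 1270 farther ones, and their median fold enrichment was 4.88 (4.40 to 5.25) against 5.01 (4.92 to 5.14). Their median control background was 1.52 times the lowest (1.34 to 1.72) against 1.16 (1.10 to 1.17). The 95th percentile of fold enrichment was 7.85 at the 66 regions and 9.48 at the farther ones. The nearest Bach peak was of Bach1 in 57 of the 66 cases and of Bach2 in 9, and in 6 it belonged to a region that also held Mafk. In the whole lists 3453 of 3871 Bach1 peaks and 1085 of 1385 Bach2 peaks lay in regions without Mafk. The larger Bach1 list alone would make Bach1 the more frequent neighbour, and a preference was not tested.

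Few regions stood at the edge of the rule. The closest was chr3:115345754-115346046 (88 fragments, fold enrichment 3.84), with 77 bp between it and a Bach1 peak at chr3:115345309-115345676 (50 fragments, Bach1 fold enrichment 2.98). The region of lowest enrichment, chr3:88468144-88468431, was 178 bp from a Bach1 peak of fold enrichment 6.71. At chr8:122750655-122750967 (7.14) a Bach1 peak of 6.39 lay at 585 bp and a Bach2 peak at 625 bp. At chr2:121942670-121943072 (3.92) a Bach1 peak of 5.70 lay at 790 bp, and at chr17:87847793-87848030 (3.11) a Bach1 peak of 4.01 lay at 1269 bp.

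On the other side of the rule, each of the 423 Mafk peaks with a Bach peak shared at least 127 bp with it, and the median was 292 bp. The least shared was 127 bp, between chr17:31858785-31859082 (Mafk fold enrichment 3.83) and a Bach1 peak of 2.51 whose summit was 148 bp away. At the others of the 5 least shared the overlap was 148 to 212 bp, with a Bach1 fold enrichment between 3.71 and 5.60. These were chr16:21862669-21862911, chr11:19937873-19938111, chr17:48587073-48587419 and chr17:5150903-5151162, where the summits lay 2 to 83 bp apart. The number of Mafk peaks that shared a base with a Bach peak but under 100 bp was 0, so the members would be the same with 100 bp required in place of 1 bp.

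Mafk-only regions were also scattered with respect to each other. The nearest other Mafk peak lay at a median of 316 kb (quartiles 118 and 820 kb), and 43 of 1336 regions, or 3.22% (2.40 to 4.31), had one within 10 kb. When regions spaced by at most 50 kb were joined, 1193 stood alone, and 143, or 10.7%, fell into 65 pairs, 3 runs of 3 and 1 run of 4. No longer run was found. Such distances depend on the number of peaks in a list. They were not set beside those of the Mafk peaks with a Bach peak, so the spacing is not shown to be particular to the Mafk-only regions.

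The run of 4 covered chr1:169221872-169303159, 81.3 kb, with a fold enrichment between 2.86 and 5.05 and 2 Bach peaks between its regions. The most compact run of 3 covered 2.60 kb at chr16:26497596-26500197, with no Bach peak within it. Its regions had 31, 67 and 80 fragments and a fold enrichment of 3.89, 7.44 and 8.87, and the latter 2 were 88 bp apart. A run of 3 at chr11:116898333-116954252 joined one of the weakest Mafk-only peaks (2.40) to a strong one at chr11:116908332-116908923 (11.3), with 2 Bach peaks within the run. The last, chr9:65135961-65188547, had values of 5.03, 4.96 and 3.76 and no Bach peak within it.

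Mafk-only regions were found on all autosomes and on chromosome X. Chromosome 3 held the most, 121 regions or 9.06% of the 1336, followed by chromosome 2 with 95, chromosome 1 with 89 and chromosome 15 with 88. Against the 76.0% of the whole list, the Mafk-only share of the Mafk peaks on a chromosome ran from 64.9% (53.5 to 74.8; 48 of 74) on chromosome 7 to 85.5% (74.7 to 92.2; 53 of 62) on chromosome 14. On chromosome 3 it was 80.1% (73.1 to 85.7). The interval of chromosome 7 was the only one on the 19 autosomes and X that left out 76.0%. The median fold enrichment of Mafk-only peaks ran from 4.66 on chromosome 11 to 5.69 on chromosome 12.

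Chromosome X held 12 Mafk-only regions, or 0.898% (0.515 to 1.56), and 4 of the 423 Mafk peaks with a Bach peak, or 0.946% (0.368 to 2.41). Position was not part of the rule, and these shares did not differ detectably (odds ratio 0.949, Fisher's exact test over peaks, two-sided, p = 1). With 12 and 4 peaks on this chromosome and wide intervals, the test cannot decide whether a modest difference exists. It covers the spread over peaks only. The single Mafk peak on chromosome Y lay on a Bach1 peak. For comparison, 70 of 3871 Bach1 peaks, or 1.81% (1.43 to 2.28), were on chromosome X. Of the 1385 Bach2 peaks 14 were, or 1.01% (0.603 to 1.69), close to the Mafk-only share.

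**Figure D5:**
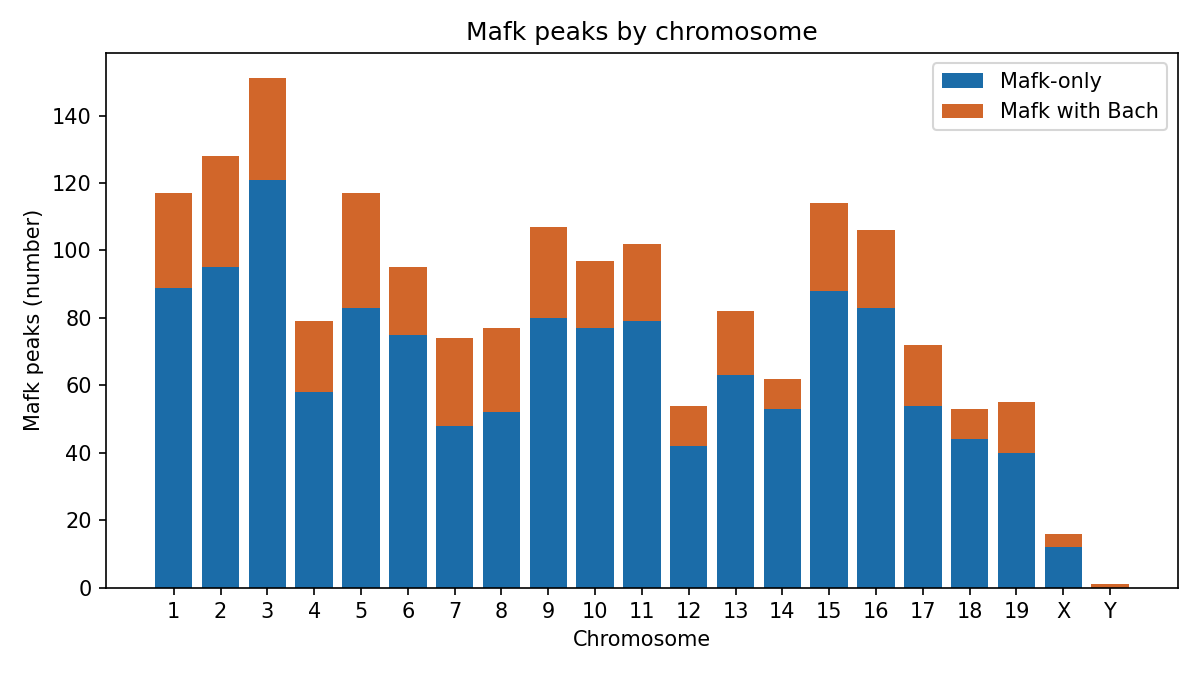
Number of Mafk peaks on each chromosome (vertical), divided into Mafk-only peaks (lower part of each bar) and Mafk peaks with a Bach peak (upper part). Chromosome 3 holds the most Mafk-only peaks, 121, and chromosome X 12.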

How the data were processed

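The data are 3 peak lists, each from 1 library of paired reads of 51 bases. Per the submitters' processing notes, CASAVA 1.8, BWA 0.7.10, MACS2 2.1.0 and the build mm9 were used; their settings are not given in the sources used here. Each peak's name includes a q of 0.01; no q column was in the lists. Per the file headers, the deposited pileup is a signal at the summit, a whole number at every peak. The deposited fold enrichment is a ratio over the control. Reads per library are unknown.

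Peaks were merged by at least 1 shared bp. The control background at a summit was recovered by dividing pileup plus 1 by fold enrichment and subtracting 1, on the assumption that the caller added a pseudocount of 1. A peak counted as being at the lowest background when within 0.001 of it, relative to its value. Shares have Wilson 95% intervals, pileups exact Poisson intervals and medians order-statistic intervals. Python 3.11.15, pandas 2.3.3 and scipy 1.17.1 were used, and merging, background and intervals were tested on simulated data. Regions were named by a rule: the 20 of highest fold enrichment, the 5 of highest pileup, the 5 of lowest fold enrichment, the 5 nearest to a Bach peak, the 5 Mafk peaks sharing the fewest bases with one, and runs of at least 3 regions; peaks beside a named region are given as context. The members and these lists were chosen with earlier results of these data known. Sequence motifs, gene distances and gene lists were not run, as no mm9 sequence or annotation was used here.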

Additional observations from a re-analysis of the deposited data

How the results depend on the processing

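Of 14 alternative values, 9 kept any direction and stayed within the interval of the main value or, for counts, within 1.5 times it. Another 3 moved outside these limits and 2 reversed in direction. The number of Mafk-only regions was 1365 with a reciprocal overlap of 50%, 1355 with summits within 100 bp, 1328 with peaks up to 1000 bp apart merged, 1094 with a fold enrichment of at least 4 in every list and 1419 with the Bach lists restricted to peaks at or above their median. With the Mafk list so restricted it was 749, which follows from the smaller list. The 20 strongest regions were Mafk-only under each of these settings, which could not have turned out otherwise. Their fold enrichment ran from 12 up and their nearest Bach peak lay 12.3 kb away, beyond the reach of these changes. The higher median enrichment of Mafk-only peaks, 0.19 in log2, reversed with pileup as the measure (-0.51), and was 0.085 at the lowest background and 0.026 as the mean over background bands, chosen after seeing the data; the background enters both fold enrichment and these bands. On chromosome X, the share with a fold enrichment of at least 4 in every list was 0.914%, against 0.858% with a Bach peak, so the order reversed, with Fisher's exact p = 1 in both settings. No paired analysis was possible because there is a single library per factor, and leaving out a replicate could not be done. The planned motif and transcription start results were not run. Reads per library are unknown, so what depth limits could not be measured.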
